A study of Mus musculus with 3 samples.

Results

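Histones are the proteins on which DNA is packed, and their genes were followed here through mouse spermatogenesis at the level of single-cell RNA. Members were the rows of the expression table whose symbol belongs to a canonical histone cluster (Hist1 to Hist4), to the H2A variants (H2af) or to histone H3.3 (H3f3), together with the linker histone genes H1f0, H1fx, H1fnt and H1foo, provided that each library held at least 1 cell with the gene. Of 82 such symbols 74 met the condition, out of 22843 genes in the table. The 8 left out were nearly silent: none had more than 12 UMIs in a library, and Hist1h3b, with 1 and 12 UMIs with hairpins 1 and 2 against 0 in shCtrl, was the highest. By family the members were 10 linker H1 genes, 18 cluster H2A, 15 cluster H2B, 10 cluster H3 and 10 cluster H4 genes, 8 H2A variants, the 2 H3.3 genes and 1 antisense transcript, H3f3aos. The choice used no measured level beyond that condition.

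The cells fell into 3 groups, each with a single library. All came from testes of ICR mice that were injected at postnatal day 21 with an AAV9 virus carrying a short hairpin RNA and red fluorescent protein (RFP). In 2 groups the hairpin was directed against Gm4665, a long non-coding RNA gene (hairpin 1 and hairpin 2). The remaining group received a control hairpin (shCtrl), injected into the testis on the opposite side. Per the labels, somatic cells were removed and RFP+ germ cells were sorted from 3 mice per condition, so the values of single mice cannot be told apart, and no age at collection was stated. The RNA was read from 3' ends with unique molecular identifiers (UMIs), each of which counts 1 captured molecule once whatever its length. The columns of the knockdown libraries were matched to hairpins 1 and 2 by the last digit of their names, and if that match were wrong the values of hairpins 1 and 2 would change places.

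Most histone genes of dividing cells are read during DNA replication, and their short messages end in a stem-loop in place of a poly(A) tail. The genes of replacement variants, such as H3.3 and H2A.Z, are read outside replication and give ordinary polyadenylated messages. In the male germ line, testis forms of H1, H2A and H2B are added in meiosis, and in elongating spermatids most histones are removed and replaced by transition proteins and then by protamines.

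The libraries held 1732 and 1873 cells with hairpins 1 and 2 and 1418 cells in shCtrl, with medians of 14667.5 and 16518 UMIs per cell, against 19366 in shCtrl. Gm4665 itself stood at 52.8 and 79.1 CPM with hairpins 1 and 2, against 311 CPM in shCtrl (CPM, the UMIs of the gene per 1000000 UMIs of the same cells). Clusters made without the histone genes and Gm4665 were named from marker lists as spermatogonia-like (129 and 148, against 48 cells with hairpin 1, hairpin 2 and shCtrl), leptotene to zygotene-like (69 and 214, against 83), pachytene to diplotene-like (203 and 252, against 85), round spermatid-like (504 and 464, against 434) and elongating spermatid-like (635 and 463, against 593). The non-germ cells, which expressed macrophage or lymphocyte genes despite the sort, numbered 92 and 179, against 19. A cluster with both Sertoli and spermatid markers and a cluster led by Mgp and Dcn entered no class. The libraries shared at most 7 cell barcodes. With 1 library per group no difference between groups could be tested. Intervals of levels are exact Poisson 95% intervals, and those of ratios are exact binomial 95% intervals given the summed UMIs of the 2 libraries. Both cover counting error only.

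The 3' ends of the messages are shown first because capture by a poly(A) tail can miss messages that lack one. The histone stem-loop, spelled as GG, any 2 bases, CTTTT, any base, AG, any 2 bases and CC, was found in annotated transcripts of 41 of the 73 sense members, 40 cluster genes and H2afx, against 72 of 21877 protein-coding genes of the mouse, these members included (0.329%). The spellings that occurred are given 5′ to 3′ in the sense of the message, one gene each, with the loop in capitals and the paired stem in lower case.
Hist1h2bp: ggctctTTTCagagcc
Hist1h1t: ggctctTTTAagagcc
Hist1h4c: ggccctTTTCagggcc
Hist1h4i: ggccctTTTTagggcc
H2afx: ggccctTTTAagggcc
Hist2h2ac: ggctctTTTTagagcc
Hist1h4j: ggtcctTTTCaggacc
The first spelling was shared by 25 members of the H1, H2A, H2B and H3 families, among them Hist1h2ap, Hist1h3a, Hist2h2aa1 and Hist3h2a. The second was found in 6 members, and the third, with a stem of ggccct, in 5 genes for H4. The fourth was found in 2 genes for H4, and each of the others in 1 member. Hist1h2bp lies at chr13:21787461-21789213 on the plus strand, Hist1h1t at chr13:23695814-23696725 on the plus strand, Hist1h4i at chr13:22040636-22041362 on the minus strand and H2afx at chr9:44334694-44336077 on the plus strand (GRCm38).

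Most members were sparse in these libraries, with or without a stem-loop. Over all cells, 22 of the 41 members with a stem-loop averaged under 1 CPM over the 3 libraries, 14 stood at 1 to 10 CPM, and 5 reached 10 CPM: Hist1h2bp, H2afx, Hist1h3a, Hist1h2ap and Hist2h2aa1. Of the 32 sense members without an annotated stem-loop, 16 averaged under 1 CPM, 4 stood at 1 to 10 CPM and 12 reached 10 CPM. The medians were 0.737 CPM with the stem-loop and 1.13 CPM without it. For 11 members without it the annotated transcripts end at the stop codon and could not show one. A poly(A) signal (AATAAA or ATTAAA in the last 50 bases) was annotated for 14 of the 41 and 13 of the 32, against 77.9% of all protein-coding genes. Hist1h2bp, the most abundant stem-loop gene, has an annotated transcript that ends 38 bases after the stem-loop and another with a poly(A) signal. H2afx continues for 822 bases past its stem-loop, whereas Hist1h2ap ends 3 bases after it. How much histone RNA without a tail the method missed was not tested.

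**Figure D1:**
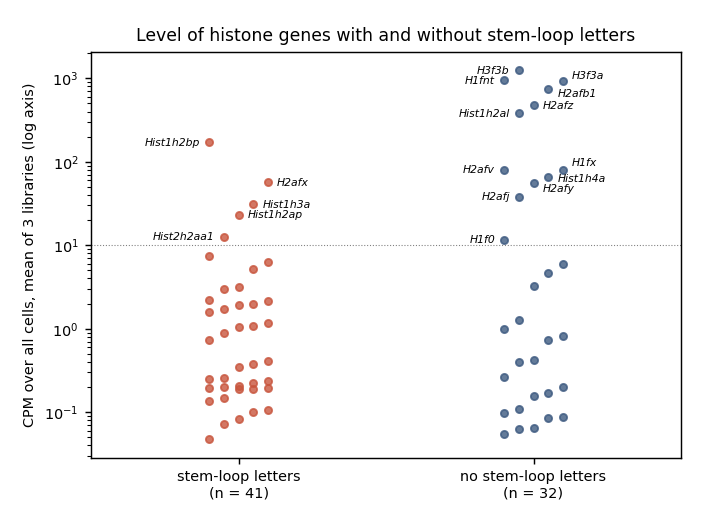
Mean level over all cells (CPM, mean of the 3 libraries, log axis) of the 73 sense histone members, split by whether an annotated transcript holds the stem-loop; each point is 1 gene, spread sideways for legibility, and the dotted line is at 10 CPM. Both groups spread from under 1 CPM upward, with 5 stem-loop genes and 12 genes without it at 10 CPM or more.

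A small number of genes made up most of the histone RNA. The 7 members at 100 CPM or more over all cells (H3f3b, H1fnt, H3f3a, H2afb1, H2afz, Hist1h2al and Hist1h2bp) held 90.9% and 88.3% of histone UMIs with hairpins 1 and 2, against 91.9% in shCtrl. The 38 members under 1 CPM held 0.148% and 0.286%, against 0.136%. All members together took 0.534% and 0.554% of all UMIs, against 0.535% in shCtrl. By class, the share was highest in leptotene to zygotene-like cells (0.927% and 0.869%, against 0.834%) and lowest in pachytene to diplotene-like cells (0.445% and 0.420%, against 0.420%). Elongating spermatid-like cells were near that value, at 0.465% and 0.429%, against 0.453%. Of the 74 members, 21 reached 10 CPM in a germ class on the mean of the libraries. Their highest class was spermatogonia-like for 6, leptotene to zygotene-like for 6, round spermatid-like for 6 and elongating spermatid-like for 3. None of the 21 was highest in pachytene to diplotene-like cells.

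**Figure D2:**
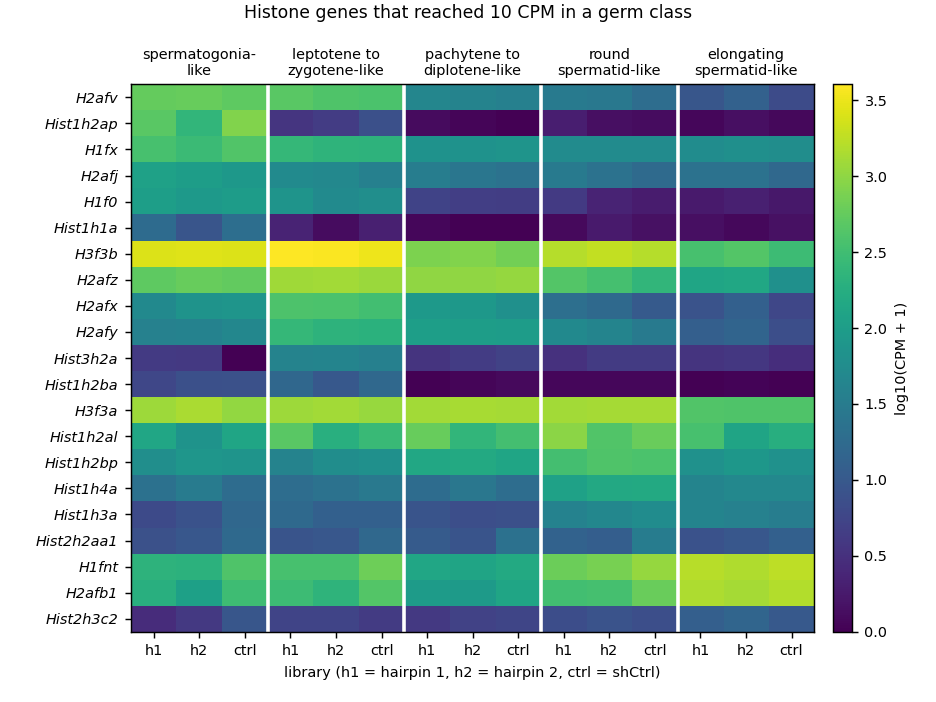
Level as log10(CPM + 1) of the 21 histone genes (rows, ordered by their highest class) that reached 10 CPM in a germ class, in each germ class and library (columns). The 3 libraries of a class look alike, while bands shift from the upper left (H2afv, Hist1h2ap) to the lower right (H1fnt, H2afb1) along spermatogenesis.

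Histone H3.3, the replacement form of H3 laid down outside replication, is made from 2 genes with different profiles. H3f3b was the most abundant histone gene of the early classes, at 2619 and 2686 CPM with hairpins 1 and 2, against 2613 CPM in shCtrl, in spermatogonia-like cells and 4028 and 3863, against 3272 CPM, in leptotene to zygotene-like cells. Its level was then lower in pachytene to diplotene-like cells (792 and 840.3, against 694 CPM), stood higher again in round spermatid-like cells (1612 and 1861, against 1609 CPM), and was lowest in elongating spermatid-like cells (359.6 and 443, against 297 CPM). This order of the 5 classes was the same in each library. H3f3a was flat by comparison. In spermatogonia-like, leptotene to zygotene-like, pachytene to diplotene-like and round spermatid-like cells of the 3 libraries it ranged only from 1031 to 1383 CPM, both of these values in spermatogonia-like cells. In elongating spermatid-like cells it stood at 426 and 406 CPM with hairpins 1 and 2, against 411 CPM in shCtrl. The last 200 bases of H3f3a are near-identical (at least 95% over 150 bases) to stretches of 27 other genes and those of H3f3b to 2. Most of these are copies without a name, so reads of H3.3 may be split between loci.

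Replacement variants of H2A followed the same early course with different ends. H2afz encodes H2A.Z, a variant placed around gene starts, and H2afv encodes its near twin H2A.Z.2. Among germ cells H2afz was highest in leptotene to zygotene-like cells (1237 and 1279 CPM with hairpins 1 and 2, against 1163 CPM in shCtrl) and remained high in pachytene to diplotene-like cells (1025 and 1011, against 1075 CPM). H2afv was highest in spermatogonia-like cells (573 and 579, against 508 CPM) and was already low in pachytene to diplotene-like cells (43.9 and 39.4, against 36.0 CPM). The 2 genes thus parted between these classes in all 3 libraries. H2afx, whose product is phosphorylated at DNA breaks and over the sex chromosomes of meiotic cells, was concentrated in leptotene to zygotene-like cells (389.7 and 379 CPM with hairpins 1 and 2, against 323 CPM in shCtrl). It stood at 51.2 and 71.1, against 75.9 CPM, in spermatogonia-like cells and at 85.5 and 83.7, against 63.4 CPM, in pachytene to diplotene-like cells. Each library was thus highest in leptotene to zygotene-like cells. H2afy, which encodes macroH2A1, showed the same peak (247 and 214, against 201 CPM, in leptotene to zygotene-like cells), while H2afy2 (macroH2A2) stayed under 10 CPM in every germ class of every library. H2afj, for H2A.J, was higher in non-germ cells (254 and 358, against 369.7 CPM) than in any germ class, the highest of which was spermatogonia-like (113 and 100.2, against 82.7 CPM).

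The short H2A variants were highest in spermatid-like classes. RefSeq lists the symbol H2afb1 as a synonym of H2al2a, a short H2A variant of spermatids, and of the X-linked H2ab1. It was read as H2al2a (chr2:17996417-17996958, minus strand), since Gm14920, a synonym of H2ab1, has a row of its own. Which locus the authors' annotation used is not known. H2afb1 reached 1426 and 1324 CPM with hairpins 1 and 2, against 1539 CPM in shCtrl, in elongating spermatid-like cells, and 329.6 and 351, against 594 CPM, in round spermatid-like cells. It stood at 95.7 and 90.8, against 131 CPM, in pachytene to diplotene-like cells, where its ratio to the protamine gene Prm1 was near that of elongating spermatid-like cells. H2afb3, another short variant, was highest in round spermatid-like cells at only 8.71 and 7.55, against 11.9 CPM, and stood at 0.922 and 1.44, against 1.62 CPM, in elongating spermatid-like cells.

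Linker histones bind between nucleosomes, and different linker genes were highest in early and late classes. H1fx, for the variant H1.10, and H1f0, for the replacement variant H1.0, were highest in spermatogonia-like cells, at 356 and 284 CPM with hairpins 1 and 2, against 420.2 CPM in shCtrl, and at 105 and 87.2, against 97.6 CPM. H1f0 was nearly absent in elongating spermatid-like cells (0.845 and 1.06, against 0.687 CPM), where H1fx still stood at 55.2 and 61.5, against 57.4 CPM. Hist1h1a, for the replication-dependent H1.1, was seen mainly in spermatogonia-like cells (17.3 and 8.02, against 19.0 CPM). Hist1h1t, for the testis form H1t of meiotic cells, was scarce everywhere and highest in leptotene to zygotene-like cells (5.13 and 3.70, against 6.11 CPM). There it was detected in 10.1% and 8.88% of cells with hairpins 1 and 2, against 19.3% in shCtrl. No non-germ cell held it, which at their number allows a share of up to 3.26% and 1.68%, against 15.8% (3 cells). The share moves with depth: in cells thinned to 10000 UMIs it was 1.69% and 3.03%, against 6.17%. H1fnt, for the spermatid linker histone H1T2, was the opposite of H1fx and H1f0. It stood at 1654 and 1521 CPM with hairpins 1 and 2, against 1758 CPM in shCtrl, in elongating spermatid-like cells, 618 and 744, against 1076 CPM, in round spermatid-like cells and 136 and 125, against 151 CPM, in pachytene to diplotene-like cells, where its ratio to the protamine gene Prm1 was near that of elongating spermatid-like cells. The other linker genes Hist1h1b, Hist1h1d, Hist1h1e and Hist1h1c stayed under 14 CPM in every germ class, and the oocyte gene H1foo had 1 and 8 UMIs with hairpins 1 and 2, against 2 in shCtrl, over all cells.

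**Figure D3:**
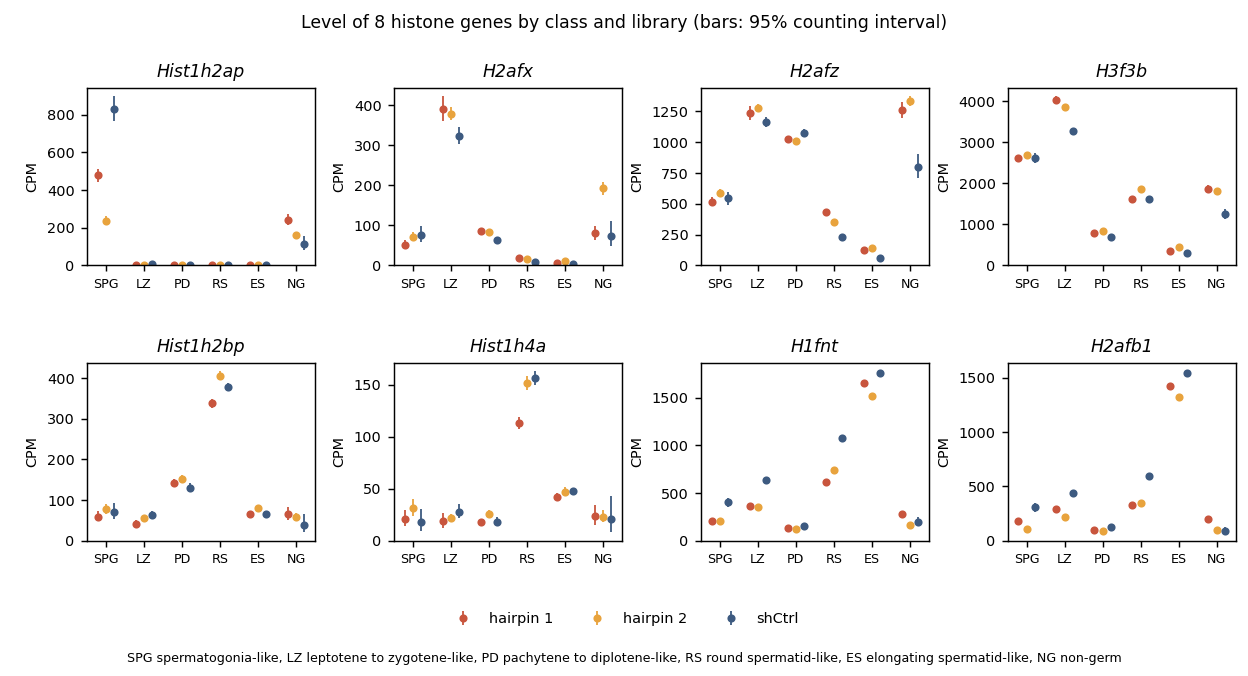
Level in CPM (y axis, linear, from 0) of 8 histone genes in the 5 germ classes and in non-germ cells (x axis), 1 point per library with its 95% counting interval. Among the germ classes Hist1h2ap was highest in spermatogonia-like, H2afx, H2afz and H3f3b in leptotene to zygotene-like, Hist1h2bp and Hist1h4a in round spermatid-like and H1fnt and H2afb1 in elongating spermatid-like cells in all 3 libraries; H2afz was also high in non-germ cells.

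Among the canonical cluster genes, 47 of the 53 outside linker H1 averaged under 10 CPM over all cells. The strongest in the earliest class was Hist1h2ap, a replication-dependent H2A gene at chr13:21833026-21833507 on the minus strand. In spermatogonia-like cells it stood at 478 and 238 CPM with hairpins 1 and 2, against 829.5 CPM in shCtrl, and in leptotene to zygotene-like cells at 2.56 and 3.37, against 6.47 CPM. It was detected in 75.2% and 60.1% of cells with hairpins 1 and 2, against 79.2% in shCtrl, among spermatogonia-like cells and in 16.3% and 35.8%, against 26.3%, among non-germ cells, with median depths of 12280 and 12316.5, against 13389 UMIs and 9685.5 and 13119, against 14047 UMIs. In cells thinned to 10000 UMIs, spermatogonia-like cells with a Hist1h2ap UMI held a mean of 23.3 and 21.9 UMIs of 24 replication genes with hairpins 1 and 2, against 21.9 in shCtrl, and those without held 16.4 and 17.8, against 18.4. Its last 200 bases are identical to Hist1h2ao, so the 2 genes cannot be separated.

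Some cluster genes peaked in haploid cells, long after the last replication. Hist1h2bp (H2B) was highest in round spermatid-like cells at 338 and 406 CPM with hairpins 1 and 2, against 378 CPM in shCtrl. Pachytene to diplotene-like cells held 143 and 153, against 131 CPM, and elongating spermatid-like cells 65.9 and 79.7, against 65.3 CPM. The end of Hist1h2bp is 99.39% identical to Hist1h2bm over 164 bases. Hist1h4a, an H4 gene with no annotated stem-loop and with a poly(A) signal, stood at 113 and 151, against 156 CPM, in round spermatid-like cells and at 17.9 and 25.9, against 18.5 CPM, in pachytene to diplotene-like cells. A UMI of Hist1h4a was found in 71.4% and 84.5% of cells with hairpins 1 and 2, against 85.5% in shCtrl, among round spermatid-like cells, and in 21.7% and 28.5%, against 31.6%, among non-germ cells, whose median depths were 11515 and 14506.5, against 15686 and 9685.5 and 13119, against 14047 UMIs. Hist1h3a, an H3 gene, lies 622 bases from Hist1h4a on the same strand. Its levels were 38.4 and 45.2, against 55.3 CPM, in round and 41.1 and 37.4, against 32.3 CPM, in elongating spermatid-like cells, and 7.51 and 6.44, against 6.55 CPM, in pachytene to diplotene-like cells. Hist2h3c2, another H3 gene, was highest in elongating spermatid-like cells at 11.4 and 14.1, against 9.31 CPM.

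The testis forms TH2B (Hist1h2ba) and TH2A (Hist1h2aa), which lie head to head 305 bases apart on chromosome 13, were captured only sparsely. Hist1h2ba was highest in leptotene to zygotene-like cells (14.7 and 8.75 CPM with hairpins 1 and 2, against 15.5 CPM in shCtrl), found in 24.6% and 21.5% of cells with hairpins 1 and 2, against 36.1% in shCtrl, and in 0% and 1.12%, against 5.26%, of non-germ cells. It stood at 4.93 and 6.51, against 6.78 CPM, in spermatogonia-like cells and at or below 0.234 CPM in pachytene to diplotene-like cells of each library. Hist1h2aa stood at 8.63 and 6.51, against 12.2 CPM, in spermatogonia-like and 5.13 and 4.88, against 6.47 CPM, in leptotene to zygotene-like cells, and had no UMI in pachytene to diplotene-like or round spermatid-like cells of any library, which allows up to 0.417 and 0.394, against 0.702 CPM, in pachytene to diplotene-like cells (3 UMIs). Hist3h2a was also highest in leptotene to zygotene-like cells, at 40.4 and 41.4, against 36.7 CPM. It stood at 2.50 and 3.42, against 4.21 CPM, in pachytene to diplotene-like cells. Unlike the testis forms it was lowest in spermatogonia-like cells on the mean of the libraries (2.03 CPM). The annotated transcripts of Hist1h2ba and Hist1h2aa end at the stop codon. Their last bases are near-identical to stretches of 14 and 11 other genes, so these low levels may not be complete.

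Promoter windows of Hist1h4a and Hist1h2ba are printed as the examples of a cluster gene high in round spermatid-like cells and of a testis form seen early. Both run from 250 bases before to 50 bases after the RefSeq start (GRCm38.p6), at chr13:23761200-23761499 and chr13:23934107-23934406, both on the minus strand, with matches to the searched motifs in capitals.
Hist1h4a: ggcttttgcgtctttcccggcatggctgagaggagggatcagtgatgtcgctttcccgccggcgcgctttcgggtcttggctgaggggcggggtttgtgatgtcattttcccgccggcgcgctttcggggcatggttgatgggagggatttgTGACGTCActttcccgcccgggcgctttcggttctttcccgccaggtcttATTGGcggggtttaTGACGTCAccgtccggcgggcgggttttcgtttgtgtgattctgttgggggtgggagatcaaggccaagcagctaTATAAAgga
Hist1h2ba: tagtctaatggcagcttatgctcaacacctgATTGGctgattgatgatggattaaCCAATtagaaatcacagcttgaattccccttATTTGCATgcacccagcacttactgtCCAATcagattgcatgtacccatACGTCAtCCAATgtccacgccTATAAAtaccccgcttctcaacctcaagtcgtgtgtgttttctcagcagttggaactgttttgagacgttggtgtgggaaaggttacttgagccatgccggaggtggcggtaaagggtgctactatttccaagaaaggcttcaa
The motifs searched on both strands were the CCAAT box, the TATA box (spelled TATAAA), the octamer (spelled ATTTGCAT), the cyclic AMP response element (TGACGTCA) and its shorter core (TGACGT), which every full element contains. Matches were counted anywhere in the window. The Hist1h4a window holds 2 copies of the full response element, 1 CCAAT box and 1 TATAAA, and no octamer. That TATAAA lies within the 50 bases after the RefSeq start, so it is counted by its letters and not as the TATA box of that start. The Hist1h2ba window holds 4 CCAAT boxes and 1 each of the octamer, the core of the response element and the TATA box, and overlaps the window of Hist1h2aa on the other strand. Of the 66 members with a window, 55 hold a CCAAT box, 31 a TATA box, 14 the octamer, 4 the full response element and 16 its core. Among 27025 mouse promoters of the same length the shares were 37.9%, 14.2%, 1.75%, 1.88% and 7.64%. The members with the full response element were Hist1h4a, Hist1h4h, Hist1h2ag and Hist1h2bj. The windows of Hist1h2ag and Hist1h2bj overlap on opposite strands and hold the same copy of it. Windows of other neighbours, such as Hist1h2an and Hist1h2bp, overlap as well, so the counts are of members and not of separate sites. The windows of H1fnt and of H2al2a, the gene as which H2afb1 was read, hold none of these letters. The same holds for H1fx, H1f0, H2afy and Hist4h4, so it is not particular to genes of late classes.

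Summed by family, the make-up of histone RNA turned over along spermatogenesis. The H3.3 genes gave 56.3% and 60.9%, against 49.4%, of histone UMIs in spermatogonia-like cells with hairpins 1 and 2 and in shCtrl, and 16.9% and 19.8%, against 15.6%, in elongating spermatid-like cells. Linker H1 genes gave 10.4% and 9.01%, against 13.1%, in spermatogonia-like cells, 4.72% and 4.69%, against 5.44%, in pachytene to diplotene-like cells and 36.8% and 36.9%, against 40.1%, in elongating spermatid-like cells, where H1fnt was nearly all of it. H1fnt outside the spermatid-like classes is not read as expression, yet it counts in the linker H1 sums there. In pachytene to diplotene-like cells it averaged 137 CPM, beside linker H1 sums of 210 and 197, against 228 CPM. In leptotene to zygotene-like cells it stood at 359.6 and 359, against 636 CPM, beside sums of 691 and 638, against 916 CPM. The linker H1 shares of the germ classes before spermatids, higher in shCtrl, thus do not measure linker expression alone. H2A variants gave 31.5% and 32.3%, against 34.2%, in pachytene to diplotene-like cells, mostly as H2afz, and 34.6% and 35.6%, against 36.2%, in elongating spermatid-like cells, mostly as H2afb1. Cluster H2B genes had their highest germ-cell share in round spermatid-like cells, at 5.73% and 6.94%, against 6.19%.

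**Figure D4:**
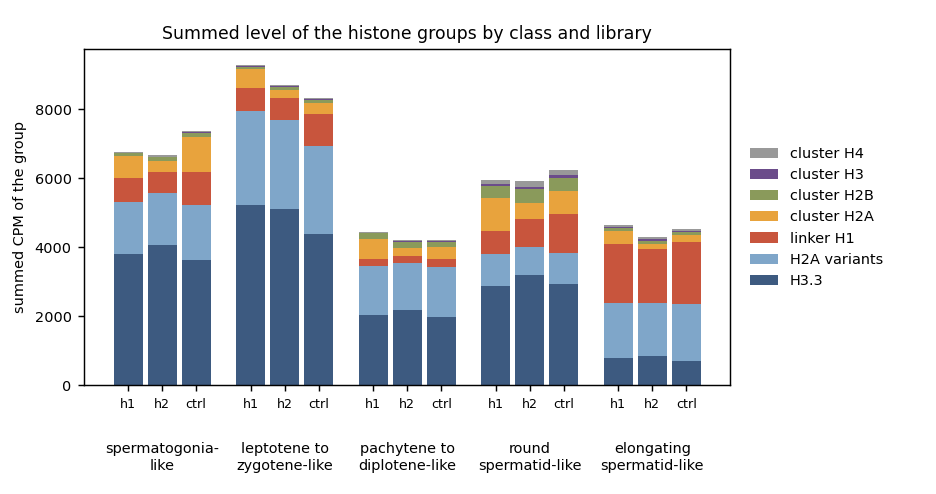
Summed level in CPM (stacked bars from 0) of the histone families in each germ class and library. H3.3 is the tallest block in spermatogonia-like and leptotene to zygotene-like cells, and linker H1 with the H2A variants make up most of the bar in elongating spermatid-like cells of each library. The linker H1 blocks before the spermatid-like classes include H1fnt, whose level there is not read as expression.

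The libraries were then compared at matched classes, to see whether histone RNA differed when Gm4665 was knocked down. A gene was compared where it averaged at least 10 CPM and 30 UMIs in all, and was called at 2-fold or more in the same direction with both hairpins, which share the control library. Spermatogonia-like cells were not compared, since shCtrl held 48 of them and 50 were required. Over all cells 17 members were compared and none was called, whereas 1.23% of all compared genes were called higher and 0.495% lower. In leptotene to zygotene-like cells none of 18 was called (0.251% higher and 0.725% lower among all genes). In pachytene to diplotene-like cells 1 of 14 was lower and none higher (0.176% lower and 0.161% higher among all genes). Among round spermatid-like cells 1 of 15 was lower and none higher (0.552% and 0.373%), and among elongating spermatid-like cells none of 13 was called (0.297% lower and 1.98% higher). The median log2 ratios of the compared members to shCtrl were -0.01 and 0.02 with hairpins 1 and 2 in round spermatid-like cells, beside 0.17 and 0.10 for all genes, and 0.26 and 0.21 in elongating spermatid-like cells, beside 0.06 and 0.03.

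The single member called was Hist2h2aa1, an H2A gene of the Hist2 cluster on chromosome 3. In round spermatid-like cells it stood at 12.5 and 11.1 CPM with hairpins 1 and 2, against 31.5 CPM in shCtrl, from 151 and 140 UMIs with hairpins 1 and 2, against 417 in shCtrl. The log2 ratios were -1.26 and -1.42, with intervals of -1.61 to -1.06 and -1.79 to -1.22. In pachytene to diplotene-like cells it stood at 9.87 and 7.62, against 21.3 CPM (-1.04 and -1.37 on the log2 scale). Both knockdown libraries also lay below shCtrl in leptotene to zygotene-like cells (7.69 and 8.41, against 15.5 CPM) and in elongating spermatid-like cells (7.22 and 8.37, against 11.7 CPM), short of 2-fold, though in the last of these hairpin 2 met shCtrl once cells were thinned to 10000 UMIs (log2 ratio 0.02). Over all cells it stood at 9.26 and 9.39, against 19.2 CPM (-0.98 and -0.96), which passed 2-fold under TMM and median-of-ratios scaling, and the call in pachytene to diplotene-like cells was lost with a pseudocount of 5 CPM. The gap held inside single clusters: the round spermatid-like cluster led by Plin2 and Spam1 gave 13.7 and 12.2, against 28.6 CPM, and the one led by Cd59b and Tmco5b gave 14.5 and 10.7, against 38.0 CPM. The last 200 bases of Hist2h2aa1 are identical to a stretch of Gm20634, which overlaps it on the same strand, and near-identical to Hist2h2aa2. The end of Hist1h2al is in turn near-identical to a stretch of Hist2h2aa1, though Hist1h2al was not among the matches to the last 200 bases of Hist2h2aa1. The locus of these reads is thus uncertain.

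Hist1h2al itself, which RefSeq lists as a transcribed pseudogene (H2af-ps2, chr13:51202727-51203065, minus strand), stood on opposite sides of shCtrl with the 2 hairpins. Over all cells it had 568 and 232 CPM with hairpins 1 and 2, against 338 CPM in shCtrl, or 0.75 and -0.54 on the log2 scale. Hairpin 1 was the highest and hairpin 2 the lowest library in each of the 4 compared classes. In round spermatid-like cells, where it peaked, the levels were 940.3 and 429, against 607 CPM, and in elongating spermatid-like cells 359 and 126, against 179 CPM. The order was the same in all 7 clusters with at least 50 cells in each library, with ratios of 0.78 to 1.11 with hairpin 1 and -0.55 to -0.19 with hairpin 2. Near-identical ends were found in 18 other genes.

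H2afz was higher in spermatids of both knockdown libraries without reaching the call. Elongating spermatid-like cells held 129 and 139 CPM with hairpins 1 and 2, against 64.1 CPM in shCtrl, log2 ratios of 0.99 and 1.10, hairpin 1 being just short of 2-fold. The clusters of this class did not take equal shares of the libraries: the cluster led by Tex37 and Tnp2 had 181 and 83 cells, against 199 in shCtrl, the one led by Klk1b3 and Prm2 had 188 and 214, against 192, the one led by Defb33 and Prm1 186 and 121, against 69, and the one led by Faiml and Actrt3 80 and 45, against 133. H2afz stood at 123 and 124, against 61.7 CPM, within the first, at 86.0 and 106, against 49.2 CPM, within the second and at 216 and 243, against 145 CPM (0.57 and 0.74), within the third, which had the highest level and the smallest ratios of these 3. With clusters weighted to the shCtrl mix, a setting chosen after the data were seen, the ratios were 0.79 and 0.93. In round spermatid-like cells the levels were 438 and 353, against 233 CPM (0.91 and 0.60), but the cluster led by Plin2 and Spam1 held 141 and 242 of them, against 124 in shCtrl, the one led by Cd59b and Tmco5b 86 and 80, against 169, the one led by Ssxb1 and Ssxb2 89 and 63, against 29, and the one led by Cd27 and Zp3r 117 and 45, against 27. Within the first of these H2afz stood at 418 and 370.4, against 376 CPM (0.15 and -0.02), and within the second at 115 and 119, against 70.6 CPM (0.70 and 0.74). Weighted to the shCtrl mix, the ratios there were 0.26 and 0.20. The last 200 bases of H2afz are near-identical to stretches of 4 other genes, so its reads may be split between loci.

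H2afx and H2afy also lay above shCtrl in round spermatid-like cells, at lower levels than H2afz, but H2afx did not follow it in every cluster. Within the pachytene to diplotene-like cluster led by Aurka and Ccna1, H2afx had ratios of 0.37 and 0.38 and H2afz 0.06 and -0.01. Within the round spermatid-like cluster led by Plin2 and Spam1 they were 0.40 and 0.50 for H2afx and 0.15 and -0.02 for H2afz. In round spermatid-like cells H2afx stood at 19.4 and 15.8, against 9.36 CPM (0.98 and 0.70, and 0.43 and 0.43 with clusters weighted to the shCtrl mix). H2afy stood there at 50.1 and 41.6, against 29.2 CPM (0.76 and 0.49, and 0.31 and 0.10 weighted). Both lay above shCtrl in leptotene to zygotene-like cells by less than 1.5-fold. Summed markers of earlier stages were also higher there: the pachytene to diplotene list (15 of 15 genes found) came to 9880.0 and 9209, against 8677 CPM, in round spermatid-like cells and the leptotene to zygotene list (15 of 15) to 676 and 659, against 548 CPM. In elongating spermatid-like cells these lists came to 4977 and 4381, against 4439 CPM, and 312 and 367, against 282 CPM. Their part in the H2afz, H2afx and H2afy values was not tested.

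The spermatid genes H1fnt and H2afb1 lay lower with both hairpins in most classes. Over all cells H1fnt stood at 876 and 740.0 CPM with hairpins 1 and 2, against 1230.2 CPM in shCtrl, and H2afb1 at 691 and 544, against 971 CPM, and elongating spermatid-like cells made up 36.7% and 24.7% of cells with hairpins 1 and 2, against 41.8% in shCtrl. Within the round spermatid-like class H1fnt had 618 and 744, against 1076 CPM (-0.80 and -0.53), and -0.20 and -0.17 with clusters weighted to the shCtrl mix. Within the cluster led by Cd59b and Tmco5b the libraries nearly met, at 1309 and 1315, against 1421 CPM. For H2afb1 the round spermatid-like ratios were -0.85 and -0.76, and -0.18 and -0.30 weighted. In elongating spermatid-like cells, where both peaked, the ratios were -0.09 and -0.21 for H1fnt and -0.11 and -0.22 for H2afb1. Within the cluster of this class led by Klk1b3 and Prm2, H1fnt lay slightly above shCtrl (0.05 and 0.13). It lay below within those led by Tex37 and Tnp2 (-0.12 and -0.17) and by Defb33 and Prm1 (-0.06 and -0.25). Per 1000 UMIs of Prm1, H2afb1 had 20.8 and 19.3, against 24.2, in round and 16.6 and 13.8, against 18.4, in elongating spermatid-like cells. In spermatogonia-like cells it had 19.0 and 12.4, against 18.1. How much of the round spermatid-like level of H2afb1 is free RNA was not tested.

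**Figure D5:**
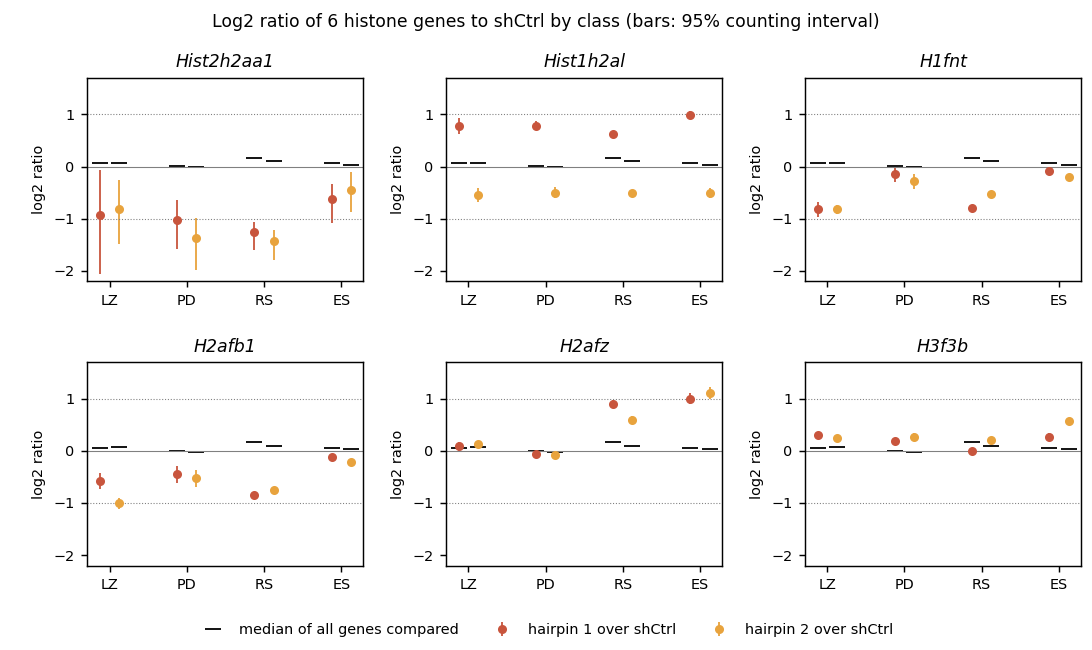
Log2 ratio of CPM + 1 to shCtrl (y axis, 0 meaning equal) of 6 histone genes in 4 germ classes, with 95% counting intervals, for hairpin 1 and hairpin 2; black dashes are the medians of all genes compared, and LZ, PD, RS and ES are the leptotene to zygotene-like, pachytene to diplotene-like, round and elongating spermatid-like classes. Hist1h2al lies above 0 with hairpin 1 and below 0 with hairpin 2 in each class, Hist2h2aa1 lies below 0 with both, and H1fnt and H2afb1 lie below 0 with both.

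The H3.3 genes, Hist1h2bp and Hist1h4a lay within 1.5-fold of shCtrl in round spermatid-like cells. Among round spermatid-like cells H3f3b had ratios of 0.00 and 0.21 with hairpins 1 and 2, H3f3a -0.05 and 0.02, Hist1h2bp -0.16 and 0.10 and Hist1h4a -0.46 and -0.04. In elongating spermatid-like cells H3f3b stood at 359.6 and 443, against 297 CPM (0.28 and 0.57). Over all cells its ratios were 0.14 and 0.61, and the first turned to -0.14 under TMM scaling. Beside the levels of Hist1h2ap in spermatogonia-like cells given above, a class too small in shCtrl to be compared, the 24 replication genes summed to 2024 and 2039, against 2075 CPM.

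Transcripts of condensing spermatids were present in cells of every class. The 15 markers of elongating and condensing spermatids, all found, summed to 44159 and 41566, against 69423 CPM, in leptotene to zygotene-like cells, 18268 and 19405, against 22988 CPM, in pachytene to diplotene-like cells, 46934 and 55068, against 75895 CPM, in round spermatid-like cells and 221198 and 235365, against 225619 CPM, in elongating spermatid-like cells. Per 1000 UMIs of Prm1, the protamine 1 gene, H1fnt had 19.2 and 15.9, against 21.0, in elongating spermatid-like cells. It had 19.4 and 21.9, against 24.2, in leptotene to zygotene-like, 20.1 and 17.7, against 18.8, in pachytene to diplotene-like and 22.1 and 20.9, against 25.1, in non-germ cells. In round spermatid-like cells it had 38.9 and 41.0, against 43.7, above the other germ classes and the non-germ cells in each library. H1fnt was found in 90.2% and 87.2%, against 94.7%, of non-germ cells (median 9685.5 and 13119, against 14047 UMIs) and in at least 99.8% of elongating spermatid-like cells of each library (median 15472 and 18710, against 21624 UMIs). The ratio of H2afb1 to Prm1 ranged from 10.9 to 19.0 outside round spermatid-like cells, where it was 20.8 and 19.3, against 24.2. Outside the spermatid-like classes, pachytene to diplotene-like cells included, the levels of H1fnt and H2afb1 are not read as expression. Their ratios to Prm1 there were often near those of elongating spermatid-like cells, but not always. H1fnt with hairpin 2 had 21.9 in leptotene to zygotene-like beside 15.9 in elongating spermatid-like cells. H2afb1 in shCtrl had 10.9 in non-germ beside 18.4 in elongating spermatid-like cells. The part of free RNA in these levels was not tested. Hist1h4a had 7.11 and 8.33, against 6.34 per 1000 Prm1 UMIs in round spermatid-like cells and 0.487 and 0.490, against 0.565 in elongating spermatid-like cells.

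Of the genes that process, carry and deposit histones, 42 were listed and all were found. Over all cells 27 were compared and 1 was called higher and none lower (1.23% and 0.495% among all genes): Cenpa, which encodes the centromeric H3 variant, at 14.6 and 28.7 CPM with hairpins 1 and 2, against 5.79 CPM in shCtrl. It came almost wholly from spermatogonia-like cells (221 and 352, against 207 CPM) and non-germ cells (98.1 and 116, against 143 CPM), being under 3 CPM in every other germ class of each library. In elongating spermatid-like cells 15 were compared and 1 was called, also higher (1.98% among all genes): Nasp, a chaperone of H3 and H4, at 223 and 217 CPM with hairpins 1 and 2, against 103 CPM in shCtrl, log2 ratios of 1.11 and 1.07. Nasp was highest in pachytene to diplotene-like cells (2081 and 2072, against 1821 CPM). No listed gene was called among 33 compared in leptotene to zygotene-like, 26 in pachytene to diplotene-like or 23 in round spermatid-like cells, where the shares called higher and lower among all genes were 0.251% and 0.725%, 0.161% and 0.176%, and 0.373% and 0.552%, too low for 1 call to be expected in lists of this size. The median ratios of the list in elongating spermatid-like cells were 0.15 and 0.18, beside 0.06 and 0.03 for all genes.

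Slbp, whose product binds the stem-loop, was highest in leptotene to zygotene-like cells in hairpin 1 and hairpin 2 (298 and 319, against 289 CPM) and in spermatogonia-like cells in shCtrl (271 and 300.1, against 312 CPM). Its lowest germ class was elongating spermatid-like cells (45.5 and 45.5, against 40.0 CPM). Nap1l1, a chaperone of H2A and H2B, stood at 436 and 425, against 390.4 CPM, in spermatogonia-like and 17.1 and 20.9, against 15.2 CPM, in elongating spermatid-like cells. Dnajc9, a chaperone of H3 and H4, was instead highest in elongating spermatid-like cells (288 and 204, against 299.9 CPM). Of the 24 replication genes none was called in any compared class, with 12 compared over all cells, 15 in leptotene to zygotene-like, 9 in pachytene to diplotene-like, 9 in round and 5 in elongating spermatid-like cells. Among all genes 0.161% to 1.98% were called in 1 direction, by class, so no call would be expected in a list of this size. Dut, Tipin, Rfc4, Ung and Mcm7 were the highest of them in any class.

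The proteins that replace histones were read for reference. In elongating spermatid-like cells the protamine gene Prm1 stood at 86172 and 95795 CPM with hairpins 1 and 2, against 83843 CPM in shCtrl, Prm2 at 54209 and 58994, against 60285 CPM, and the transition protein genes Tnp1 and Tnp2 at 29423 and 31048, against 27665 CPM, and 25478 and 23624, against 25455 CPM. Their log2 ratios to shCtrl were 0.04 and 0.19 for Prm1, -0.15 and -0.03 for Prm2, 0.09 and 0.17 for Tnp1 and 0.00 and -0.11 for Tnp2. Hils1, for a linker-like protein of spermatids, stood at 2087 and 1705, against 2256 CPM (-0.11 and -0.40).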

How the data were processed

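The authors deposited 1 expression table for all 3 libraries, as natural log (ln) values of 1 plus 10000 times the share of a gene in the UMIs of its cell, per the values in the file. The genome build was mm10 and the tools were Cell Ranger 1.3.1 and Seurat 2.0.0, per the submitters' processing notes. No source names the annotation, the strand setting or the cell filter used. Undoing the log gave whole UMIs within 0.01 for 100.000% of 20140203 non-zero values, and these UMIs were used.

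All 5023 cells were kept. Cells were clustered with scanpy 1.11.5 (2000 variable genes, 30 principal components, 15 neighbours, Leiden resolution 0.8) without the histone genes and Gm4665, which gave 19 clusters; a name needed at least 3 of its markers raised 1.5-fold. Scanpy's doublet caller marked 7 and 2 cells with hairpins 1 and 2, against 8 in shCtrl (0.404% and 0.107%, against 0.564%), too few to take it as having worked, and none was removed. Cells below 10000 UMIs (530 and 332, against 70) were left out only where cells were thinned.

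UMIs were summed per class and library and scaled to CPM. Log2 ratios used a pseudocount of 1 CPM, while their intervals used none. No test could be run with 1 library per group. The members and lists were chosen with earlier results of these data known. Genes named were the germ-cell members, all H2A variants, H3.3 and linker H1 genes, the 20 other members with the highest class level, every member called, and of the supply and replication lists the 5 highest and every gene called over all cells; Nasp in elongating spermatid-like cells is among the 5 highest.

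Gene positions and transcripts came from GENCODE vM21 (GRCm38) and promoters from RefSeq (GRCm38.p6), in which 66 members had an entry. The last 200 bases of the members were compared with whole transcripts of other genes by blastn 2.17.0. The ratio and call step and the interval of the ratios were tested on simulated counts. Python 3.11.15, numpy 2.4.6, scipy 1.17.1, pandas 2.3.3, scikit-learn 1.9.0, leidenalg 0.10.2, igraph 0.11.9 and matplotlib 3.10.9 were used. Alternatives covered scaling, filters, pseudocount, fold, depth, doublets, cell mix and clustering.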

Additional observations from a re-analysis of the deposited data

Results flagged for a closer look

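Hist1h2al stood above shCtrl with hairpin 1 and below it with hairpin 2, the only histone gene whose hairpins lay this far apart on opposite sides. On the log2 scale the ratios with hairpins 1 and 2 were 0.75 and -0.54 over all cells, 0.78 and -0.55 in leptotene to zygotene-like, 0.78 and -0.50 in pachytene to diplotene-like, 0.63 and -0.50 in round spermatid-like and 0.995 and -0.50 in elongating spermatid-like cells. The difference between the hairpins was not tested, as each is a single library. Non-germ cells showed 219.5 and 92.1, against 71.6 CPM.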

How the results depend on the processing

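The counts of histone genes called moved with some settings. Over all cells, against 0 lower in the values reported, 1 member, in each case Hist2h2aa1, was lower under TMM scaling, 1 under median-of-ratios scaling, 1 without the 20 most abundant genes, 1 with germ classes weighted to the shCtrl mix, 1 with the non-germ, mixed and unnamed clusters left out and 1 at 1.5-fold; against 0 higher, 1 was higher with no filter (Hist1h1c) and 3 at 1.5-fold (H2afz, H2afj and H1f0). In round spermatid-like cells the count lower, 1, became 2 with no filter (with Hist1h2bc), 0 with a filter of 30 CPM and 100 UMIs, and 2 at 1.5-fold (with H2afb1), and the count higher, 0, became 2 at 1.5-fold (H2afx and H2afz). In pachytene to diplotene-like cells the count lower, 1, became 0 with that stricter filter and 0 with a pseudocount of 5 CPM. At 1.5-fold, 2 members were lower in leptotene to zygotene-like (H1fnt and Hist2h2aa1) and 2 higher in elongating spermatid-like cells (H2afy and H2afz). Hist2h2aa1 was called in round spermatid-like cells under all settings but the stricter filter. A stricter filter removes Hist2h2aa1 by its construction; the other causes were not tested.

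Scaling moved the median of all genes over all cells to -0.04 and -0.09 under TMM, beside 0.23 and 0.25 with totals. Relative to it, the TMM ratios over all cells were 0.51 and -0.80 for Hist1h2al and -0.73 and -0.99 for H1fnt. No result changed sign among those called. Of 602 values each, 599 stayed within the counting interval at Leiden resolution 1.2 and 597 with the histone genes kept in the clustering. Of 490 values each, 473 did so without marked doublets, 370 with cells thinned to 10000 UMIs, 361 under TMM and 353 under median-of-ratios scaling. Of 98 values over all cells, 65 did so with the non-germ, mixed and unnamed clusters left out and 43 with germ classes weighted to the shCtrl mix, while 229 of 294 did so with clusters weighted within a class. No paired analysis was possible because each group is a single library. Depth limits the members under 1 CPM, and 26 members share their last bases with other genes.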

Other observations

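In non-germ cells, where H3.3 genes gave 46.3% and 45.3%, against 49.1%, and H2A variants 33.2% and 37.2%, against 37.0%, of histone UMIs, Hist1h1c, for the linker histone H1.2, stood at 135 and 133 CPM with hairpins 1 and 2, against 50.7 CPM in shCtrl, while no germ class reached 14 CPM. In the cluster led by Jchain and Mzb1, genes of antibody-secreting cells, Hist1h1c stood at 236 and 189, against 165 CPM, Hist1h2bc (H2B) at 31.9 and 116, against 10.3 CPM, and Hist1h4i (H4) at 44.4 and 71.4, against 10.3 CPM. That cluster held 42 and 99 cells with hairpins 1 and 2, against 3 in shCtrl, so the shCtrl values rest on very few cells.

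Among members below the filter, Hist1h2bc in round spermatid-like cells had 3 and 15 UMIs with hairpins 1 and 2, against 57 in shCtrl, and was lower with both hairpins (-2.09 and -1.27 on the log2 scale). Hist1h3d in pachytene to diplotene-like cells stood at 7.09 and 8.28 CPM with hairpins 1 and 2, against 3.27 CPM in shCtrl. Both were picked after their values were seen.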
